A study of Mus musculus with 6 samples.

Results

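The genes described here are the FoxO transcription factor genes Foxo1, Foxo3 and Foxo4, the NRF2 gene Nfe2l2, and 6 genes of antioxidant enzymes, Sod2, Cat, Gpx1, Gpx4, Prdx1 and Prdx2. They were taken by gene symbol from a deposited table of 15553 genes, in which all 10 were present, and all 10 passed the filter on low values. RNA sequencing compared hematopoietic stem and progenitor cells from the bone marrow of C57BL/6 mice, 6 to 8 weeks old, in 3 libraries labelled Yy1 knockout (genotype Yy1f/f;Mx1-Cre) and 3 labelled wild type (genotype Mx1-Cre). The cells were lineage-negative, Sca1-positive and c-Kit-positive. The sample labels name a CD150-positive gate, and the protocol also names a CD150-negative one. YY1 binds DNA through zinc fingers and works with Polycomb proteins, and the study asked about its part in stem cell quiescence. Mx1-Cre, a recombinase gene under an interferon-inducible promoter, was carried by the mice of both groups and is not restricted to stem cells. The labels give neither how Cre was induced nor whether each library came from its own mouse, so the p-values measure the spread between these libraries, which may be technical.

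FoxO proteins are transcription factors held in the cytoplasm when growth factor signalling through PI3K and AKT phosphorylates them. In mice, FoxO proteins, FOXO3 in particular, are known for keeping hematopoietic stem cells quiescent and their reactive oxygen species low, in part through target genes such as Sod2 and Cat. NRF2, encoded by Nfe2l2, is kept low by the adaptor KEAP1 and, when released under oxidative stress, switches on detoxifying genes through antioxidant response elements. Of the enzymes, the mitochondrial superoxide dismutase SOD2 makes hydrogen peroxide from superoxide. Catalase, GPX1 and the peroxiredoxins break hydrogen peroxide down, and GPX4 reduces lipid peroxides.

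Levels are RPKM, reads scaled by gene length and by a scaling total for each library. The length counts all annotated exons of a gene, 3043 bases for Prdx1 and 1441 for Gpx1. It can exceed the length of the transcript made in these cells, which lowers the RPKM. Ranks, sums and shares across genes are thus approximate, while a gene's own values in the 6 libraries share 1 length. The value that 1 read is worth in each library implies a scaling total of 17402756 to 19535460 reads in the knockout libraries and 12920190 to 16112105 in the wild-type libraries. Yy1 itself stood at 36.2, 16.6 and 28.5 RPKM in the libraries labelled knockout and at 31.6, 42.3 and 52.1 RPKM in wild type. At the targeted gene, the library labelled Yy1 knockout replicate 1 was thus no lower than wild type replicate 1, and the labels do not name the deleted part of Yy1. All 12 stem cell markers examined were listed, among them Procr at 37.2 to 51.0 RPKM in knockout and 36.9 to 62.9 RPKM in wild type. Of 13 lymphocyte markers, 4 were in the table, and they summed to 18.4 to 28.3 RPKM in knockout and 18.3 to 40.2 RPKM in wild type. Of 10 stromal markers, 7 were, with sums of 12.9 to 18.6 RPKM in knockout and 15.7 to 24.9 RPKM in wild type. The summed RPKM of the stem cell markers, which include Kit and Hlf, was 377 to 438 in knockout and 550.5 to 621 in wild type. That of the 10 megakaryocyte markers was 64.8 to 129 in knockout and 37.7 to 52.5 in wild type. Neither sum overlapped between genotypes. Among single genes tested, 14.5% had no overlap, and the share for sums was not worked out. A sum follows its most abundant genes and does not give the direction of each marker. Kit, of the sort gate, stood at 76.6 to 82.6 RPKM in knockout and 112 to 140 RPKM in wild type. Slamf1, the gene of CD150, averaged higher in knockout but overlapped, at 3.77 to 5.96 RPKM beside 2.21 to 3.90 RPKM in wild type. Granulocyte markers, 11 of 12 in the table, summed to 42.1, 316 and 59.4 RPKM in knockout and to 75.0, 179 and 18.8 RPKM in wild type. Replicate 2 of each genotype thus stood apart from the other 4 libraries. The part of these marker levels in the values below was not tested.

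The FoxO genes are close relatives, and the sequence below is shown because it bears on whether their reads can be told apart, which also depends on read length. The longest identical run between the coding sequences of Foxo1 and Foxo3 was 38 bases, against 17 bases for Foxo1 with Foxo4 and 20 for Foxo3 with Foxo4. The aligned coding stretches of the GENCODE M21 transcripts, on the GRCm38 assembly, are given 5′ to 3′ on the coding strand, and capitals mark bases that are the same in all 3 genes.
Foxo1, coding bases 571 to 608: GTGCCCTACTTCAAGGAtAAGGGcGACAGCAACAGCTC
Foxo3, coding bases 568 to 605: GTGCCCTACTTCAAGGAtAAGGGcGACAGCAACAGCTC
Foxo4, coding bases 403 to 440: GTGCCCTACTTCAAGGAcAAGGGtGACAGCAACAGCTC
Foxo4 matched Foxo1 at 36 of these 38 bases. Of the 50-base words of the Foxo3 and Foxo4 transcripts, 0 of 7568 and 0 of 3482 occurred in transcripts of any other gene. The 38-base run is shorter than these words, so the counts cannot show sharing by reads of 38 bases or fewer. For Foxo1, 586 of 8616 words (6.80%) did, 577 of them on the opposite strand in Gm20402, an antisense gene that was not listed.

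For the antioxidant side, short stretches are shown where a promoter window held an antioxidant response element or a YY1 motif. The RefSeq windows (GRCm38.p6) run from 250 bases before to 50 after a gene's start, and 9 of the 10 genes had 1 or more, in 12 windows. Capitals mark the match, and each stretch is 30 bases on the strand of the gene.
Prdx1, chr4:116685456-116685485, plus strand: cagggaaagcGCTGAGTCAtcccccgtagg
Nfe2l2, chr2:75704884-75704913, minus strand: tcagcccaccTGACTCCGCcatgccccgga
Gpx1, chr9:108338958-108338987, plus strand: ttgccagaggCCATCTTcctaggcgggact
The antioxidant response element core was searched on both strands as TGACNNNGC, in which N is any base. It was in 12.4% of all 32851 windows and in 2 of these 12, as the reverse complement at -133 to -125 from the start of Prdx1 and as spelled at -240 to -232 from that of Nfe2l2. A YY1 motif searched as CCATNTT was in 16.1% of all windows and here only in that of Gpx1, at -112 to -106 from its RefSeq start, which lies inside the gene as GENCODE M21 places it. The FoxO motif GTAAACA (3.65% of all windows) and a longer YY1 motif, AANATGGCG (2.38%), had no match in the 12 windows. The motifs do not overlap in these stretches, and a match of letters is no evidence of binding.

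None of the 10 genes changed past the threshold between genotypes. In limma on log2(RPKM + 0.5) with Benjamini-Hochberg adjustment over 13179 genes tested, 0 of the 10 and 0% of all genes had an adjusted p under 0.05, and the 10 adjusted p-values were 0.676 to 0.979. At an unadjusted p under 0.05 there were 0 of the 10, where 7.79% of all genes tested lay, 4.73% higher and 3.06% lower in knockout. All 10 overlapped between genotypes, while 14.5% of all genes tested had values with no overlap. By log2 fold change (knockout over wild type), 4 genes lay above 0 and 6 below, beside 51.9% and 48.1% of all genes tested, and the median was -0.05 beside 0.02. A limma-voom fit of reads recovered from the RPKM values, which called 8 of 13114 genes (0.061%), gave adjusted p-values of 0.605 to 0.980 for the 10.

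Among the FoxO genes, Foxo3 had the highest mean RPKM and the smallest p. It lies on chromosome 10, from 42181841 to 42276755 (GENCODE M21, GRCm38; ENSMUSG00000048756). Its level was 22.6, 30.8 and 21.4 RPKM in the knockout libraries and 28.4, 36.2 and 39.8 RPKM in the wild-type libraries. Knockout replicate 2 stood above wild type replicate 1, and otherwise the knockout values were the lower ones. It averaged 24.9 ± 5.11 RPKM in knockout and 34.8 ± 5.85 RPKM in wild type (SD over 3 libraries, as for all later means), from 2974 to 4079 reads per library in knockout and 2774 to 4456 in wild type. This was a log2 fold change of -0.48, standard error 0.23, with a 95% interval of -1.01 to 0.06 and an adjusted p of 0.676 in limma. The authors' deposited table gives Foxo3 a log2 fold change of -0.50, an unadjusted p of 0.0187 and an adjusted p of 0.582. It was the only 1 of the 10 under 0.05 before adjustment in the authors' deposited table, where 8.02% of all genes were, and 0 of the 10 passed after it, beside 0.154% of all genes. In bulk RNA of sorted cells, fewer cells of a type and less RNA per cell cannot be told apart.

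Foxo4, the X-linked member (101254528 to 101260873, ENSMUSG00000042903), stood at 9.50, 15.1 and 12.1 RPKM in knockout and at 22.9, 17.4 and 12.1 RPKM in wild type. The overlap came from wild type replicate 3, the lowest of its group. The means were 12.2 ± 2.78 RPKM in knockout and 17.5 ± 5.39 RPKM in wild type, a log2 fold change of -0.48 (standard error 0.31, limma adjusted p = 0.753). It was -0.71 when wild type replicate 3 was left out and -0.26 when wild type replicate 1 was, and neither passed.

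Foxo1, on chromosome 3 (52268336 to 52353221, ENSMUSG00000044167), had the lowest mean of the 10 genes in both genotypes. It stood at 1.78, 3.38 and 3.53 RPKM in knockout, from 268 to 597 reads, and at 5.38, 4.34 and 3.51 RPKM in wild type, from 450 to 606 reads. The groups met at their edges, since knockout replicate 3 and wild type replicate 3 were nearly equal. The means were 2.89 ± 0.970 RPKM in knockout and 4.41 ± 0.934 RPKM in wild type. Its log2 fold change of -0.56 (standard error 0.44, limma adjusted p = 0.803) was -0.30 without the library labelled Yy1 knockout replicate 1.

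**Figure D1:**
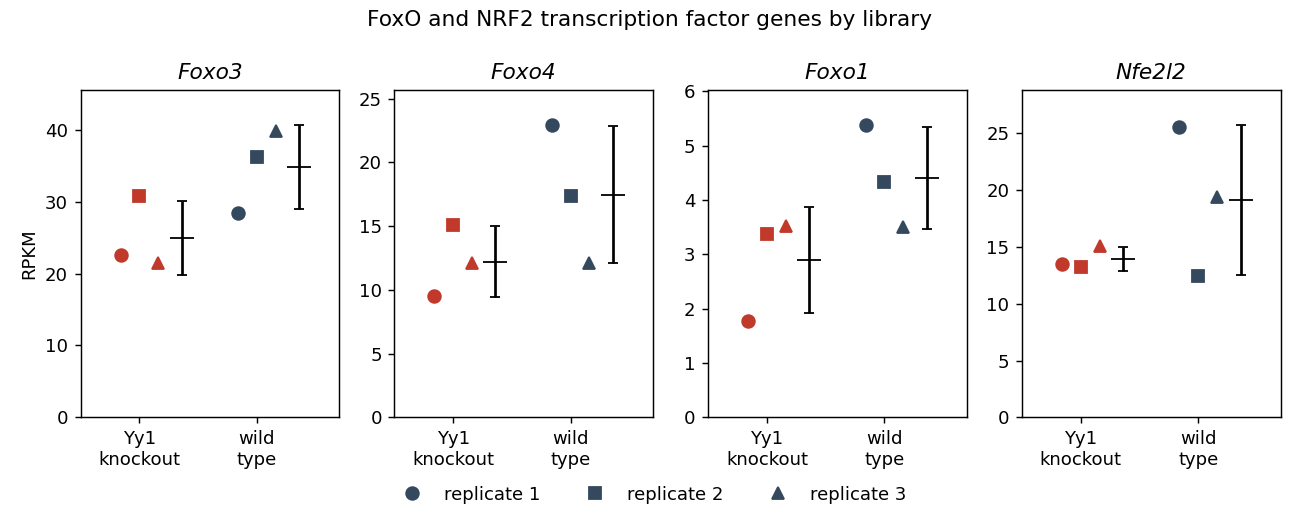
Level in RPKM of the FoxO genes and Nfe2l2 in each library, with Yy1 knockout in red at the left of each panel and wild type in dark blue at the right. Symbols are replicates, and the black bar is the mean ± SD (n = 3). The FoxO means are lower in knockout, and in every panel the groups overlap.

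Added up, the FoxO genes came to 33.8, 49.2 and 37.0 RPKM in knockout and to 56.7, 57.9 and 55.5 RPKM in wild type. The sums did not overlap between genotypes, although each gene did. Of single genes tested, 14.5% had no overlap, and the share for sums of genes was not worked out. The means were 40.0 ± 8.12 RPKM in knockout and 56.7 ± 1.20 RPKM in wild type. The wild-type sums were much closer together than the values of their parts, since wild type replicate 1 was the lowest of its group in Foxo3 and the highest in Foxo4, and wild type replicate 3 was the reverse. The sum over chosen genes is given as a description, with no test. Its make-up overlapped between genotypes. Foxo3 was 66.7%, 62.5% and 57.8% of the sum in knockout and 50.1%, 62.5% and 71.8% in wild type. Foxo4 was 28.1% to 32.6% of it in knockout and 21.9% to 40.5% in wild type, and Foxo1 was 5.25% to 9.52% in knockout and 6.33% to 9.49% in wild type.

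**Figure D2:**
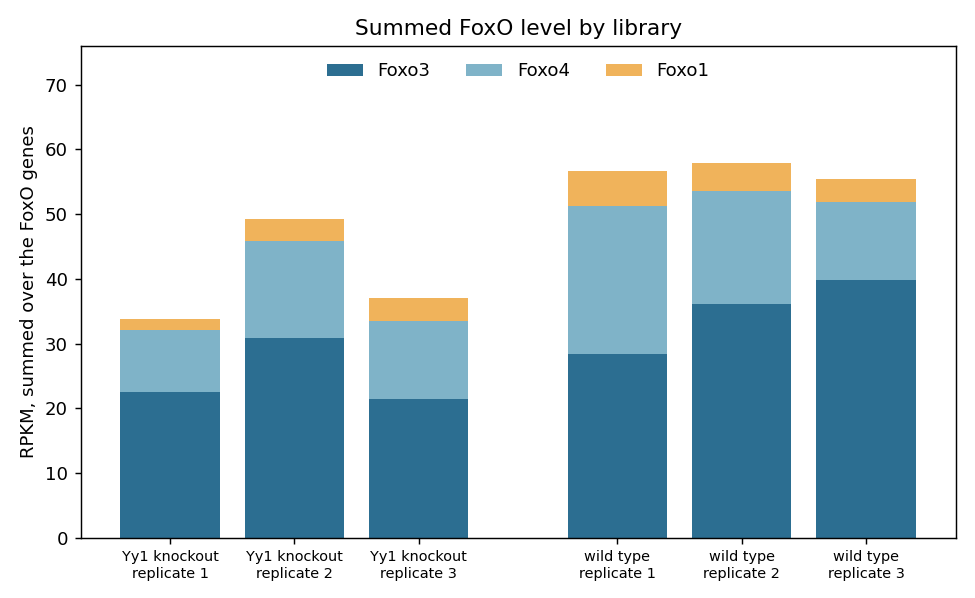
Summed RPKM of Foxo3, Foxo4 and Foxo1, stacked, in each library, with the Yy1 knockout libraries at the left and the wild-type libraries at the right. The knockout sums are 33.8, 49.2 and 37.0 RPKM, below the wild-type sums of 55.5 to 57.9 RPKM, although each gene overlaps between genotypes.

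Nfe2l2, on chromosome 2 (75675513 to 75704641, ENSMUSG00000015839), stood at 13.5, 13.2 and 15.1 RPKM in knockout and at 25.6, 12.4 and 19.4 RPKM in wild type. The knockout libraries were close together, and the wild-type libraries lay on either side of them. The means were 13.9 ± 1.04 RPKM in knockout and 19.1 ± 6.58 RPKM in wild type, with a log2 fold change of -0.39, a standard error of 0.30 and a limma adjusted p of 0.796. Without wild type replicate 1, its highest library, the log2 fold change was -0.15, and without wild type replicate 2 it was -0.66.

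Gpx1, the gene of the main cytosolic glutathione peroxidase, had by far the highest RPKM of the 10 genes, and 98.6% of all genes tested had a lower mean. It lies on chromosome 9 (108338903 to 108340343, ENSMUSG00000063856). It stood at 234, 224 and 292 RPKM in knockout and at 150.3, 209 and 274 RPKM in wild type. Each knockout library was above wild type replicates 1 and 2, and wild type replicate 3 lay among the knockout values. The means were 249.9 ± 36.4 RPKM in knockout and 211 ± 62.1 RPKM in wild type, with a log2 fold change of 0.27, a standard error of 0.25 and a limma adjusted p of 0.822. Without wild type replicate 1 the log2 fold change was 0.05.

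Gpx4, the gene of the lipid peroxide reductase that guards against ferroptosis, varied most between libraries of the same genotype. It lies on the same chromosome as Foxo3 (80047166 to 80056439, ENSMUSG00000075706). It stood at 14.9, 9.38 and 22.1 RPKM in knockout, from 283 to 744 reads, and at 2.47, 8.96 and 27.2 RPKM in wild type, from 55, 249 and 693 reads. The highest and the lowest value of all 6 libraries were both in wild type, 11.0-fold apart. The means were 15.4 ± 6.37 RPKM in knockout and 12.9 ± 12.8 RPKM in wild type. The log2 fold change of 0.71 had a standard error of 0.76 and a limma adjusted p of 0.853, turning to -0.10 when wild type replicate 1 was left out and reaching 1.51 when wild type replicate 3 was. Of the 50-base words of the Gpx4 transcripts, 627 of 1805 (34.7%) also occurred in the pseudogene Gpx4-ps2, which was not listed, so the value can depend on how shared reads were counted.

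Prdx1, the gene of a cytosolic peroxiredoxin and itself a known NRF2 target, stood apart in 1 library. It lies on chromosome 4 (116685544 to 116700822, ENSMUSG00000028691). It stood at 33.6, 19.5 and 16.0 RPKM in knockout and at 15.5, 17.6 and 14.3 RPKM in wild type. The library labelled Yy1 knockout replicate 1 was the highest, and knockout replicate 3, at 16.0 RPKM, was between wild type replicates 1 and 2. The means were 23.0 ± 9.34 RPKM in knockout and 15.8 ± 1.66 RPKM in wild type. The log2 fold change of 0.46 (standard error 0.30, limma adjusted p = 0.756) was 0.16 without the library labelled Yy1 knockout replicate 1. That library also had the highest level of the platelet factor gene Pf4, at 49.0 RPKM beside 14.5 and 17.0 RPKM in the other knockout libraries and 3.75 to 11.1 RPKM in wild type. Its megakaryocyte marker sum was 129 RPKM. The part of megakaryocytic RNA in the Prdx1 value was not tested. Of the 50-base words of Prdx1, 263 of 3087 (8.52%) occurred in other listed genes, most of them in the predicted genes Gm21399 and Gm7204, which can share its reads. Gm21399 stood at 49.1, 19.2 and 25.2 RPKM in knockout and at 35.5, 22.9 and 45.9 RPKM in wild type. Gm7204 stood at 21.8, 16.5 and 1.62 RPKM in knockout and at 15.9, 13.9 and 14.7 RPKM in wild type. In knockout both genes were, like Prdx1, highest in replicate 1, and in wild type both were lowest in replicate 2, where Prdx1 was highest. The part of shared reads in the Prdx1 value was not tested.

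Prdx2, the gene of the peroxiredoxin abundant in red cells, had the second highest mean RPKM of the 10 genes, and its means were nearly equal. It lies on chromosome 8 (84969587 to 84974834, ENSMUSG00000005161). It stood at 47.6, 41.7 and 62.5 RPKM in knockout and at 44.1, 49.3 and 61.7 RPKM in wild type. Both ranges covered nearly the same span. The means were 50.6 ± 10.7 RPKM in knockout and 51.7 ± 9.07 RPKM in wild type, and the log2 fold change was -0.04 with a 95% interval of -0.55 to 0.48 (limma adjusted p = 0.979). Leaving out wild type replicate 3 turned it to 0.10, and leaving out knockout replicate 2 to 0.09. The 10 listed erythroid markers of 14, several of them abundant in stem cells too, summed to 226 to 280 RPKM in knockout and 222 to 266 RPKM in wild type, likewise with overlap. This sum hides genes that went opposite ways. Car2 was lower in knockout, at 149, 142 and 124 RPKM beside 188, 165 and 200 RPKM in wild type. The globin gene Hbb-bs was higher in knockout, at 28.8, 15.6 and 78.8 RPKM beside 3.50, 14.4 and 15.0 RPKM in wild type, and Hbb-bt overlapped. The defining erythroid markers Klf1, Alas2 and Slc4a1 were not in the table. The part of erythroid RNA in the Prdx2 value was not tested. Of the words of Prdx2, 372 of 3089 (12.0%) occurred in other listed genes, among them the pseudogene Tdpx-ps1 and the overlapping genes Junb and Rnaseh2a on the opposite strand. Tdpx-ps1 stood at 101 to 118 RPKM in knockout and 100 to 130 RPKM in wild type, above Prdx2 itself. Junb stood at 15.3 to 20.4 RPKM in knockout and 12.4 to 50.3 RPKM in wild type. The part of shared reads in the Prdx2 value was not tested.

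Cat, the catalase gene on chromosome 2 (103453849 to 103485160, ENSMUSG00000027187), stood at 25.4, 31.9 and 38.7 RPKM in knockout and at 29.5, 36.3 and 22.9 RPKM in wild type. The libraries of the genotypes were interleaved. The means were 32.0 ± 6.68 RPKM in knockout and 29.6 ± 6.74 RPKM in wild type. The log2 fold change of 0.11 had a 95% interval of -0.47 to 0.70 and a limma adjusted p of 0.938. Leaving out knockout replicate 3 turned it to -0.03, and leaving out wild type replicate 3 to -0.055.

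Sod2, on chromosome 17 (13006846 to 13040063, ENSMUSG00000006818), stood at 19.4, 9.30 and 15.1 RPKM in knockout and at 12.0, 19.6 and 13.5 RPKM in wild type. Here too the genotypes were interleaved, and the lowest library was a knockout one. The means were 14.6 ± 5.09 RPKM in knockout and 15.0 ± 4.03 RPKM in wild type, and the log2 fold change was -0.07 with a 95% interval of -0.86 to 0.72 (limma adjusted p = 0.973). Leaving out knockout replicate 2 turned it to 0.21, and leaving out wild type replicate 2 to 0.13. Of the 50-base words of Sod2, 1695 of 10012 (16.9%) occurred in other listed genes, chiefly Rps6ka2. Rps6ka2 had 0.592 to 0.890 RPKM in knockout and 0 to 0.258 RPKM in wild type.

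**Figure D3:**
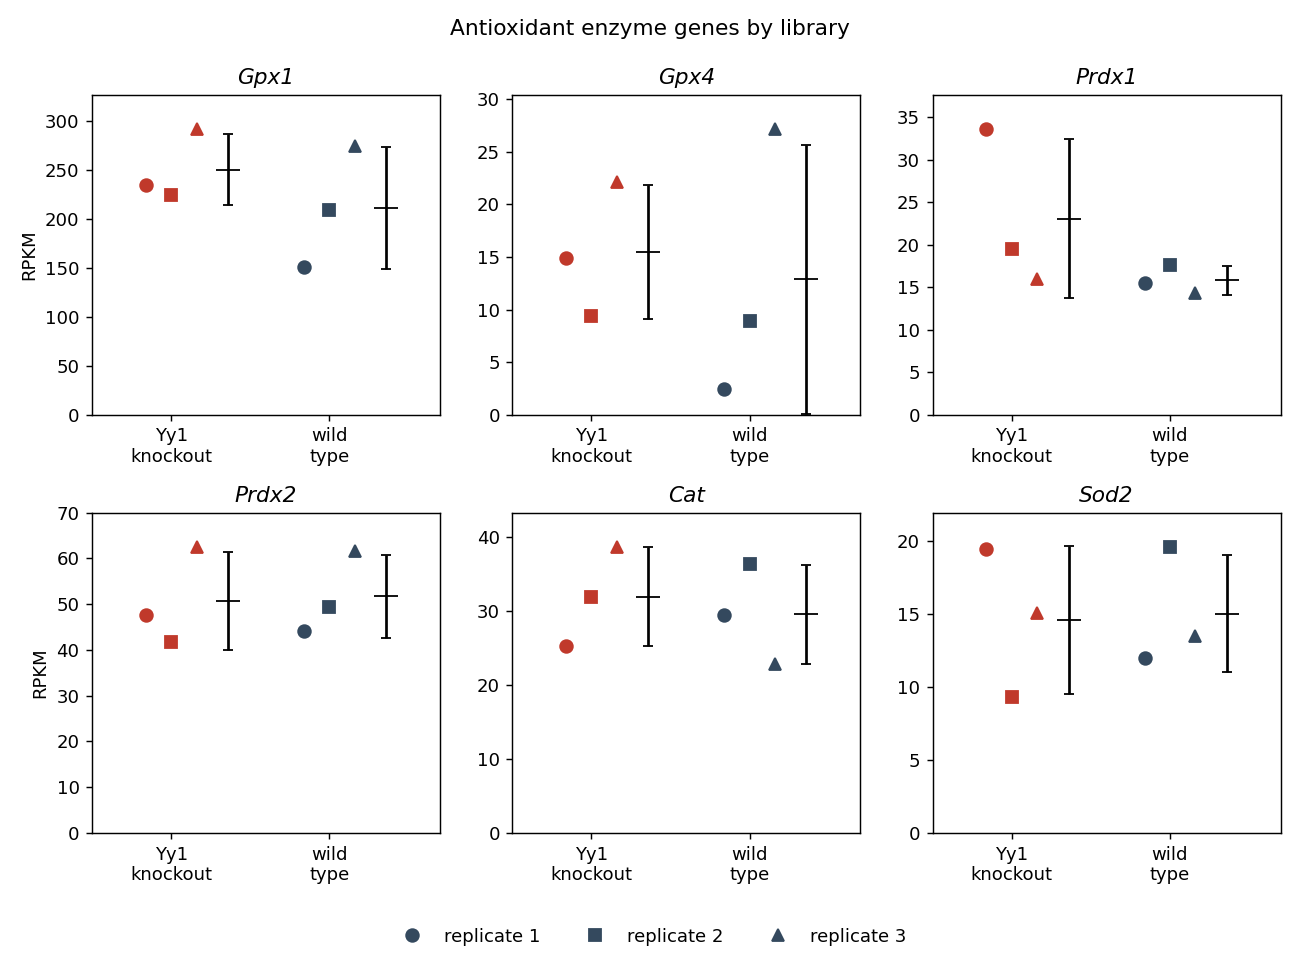
Level in RPKM of the antioxidant enzyme genes in each library, with Yy1 knockout in red at the left of each panel and wild type in dark blue at the right. Symbols are replicates, and the black bar is the mean ± SD (n = 3). Each gene overlaps between genotypes, Gpx4 spans 2.47 to 27.2 RPKM in wild type, and Prdx1 is highest in the library labelled Yy1 knockout replicate 1.

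The 6 enzyme genes together came to 375, 336 and 446 RPKM in knockout and to 254, 341 and 414 RPKM in wild type. Gpx1 made up 62.4% to 66.7% of this sum in knockout and 59.2% to 66.3% in wild type. Prdx2 made up 12.4% to 14.0% in knockout and 14.5% to 17.4% in wild type, the only enzyme share with no overlap between genotypes. Of single genes tested, 14.5% had no overlap. The level of Prdx2 itself overlapped, and its share also moves with Gpx1, the largest part of the sum. By mean level, Gpx1 and then Prdx2 led in both genotypes. Below them the ranges of Cat and Foxo3 overlapped in each genotype, as did those of Sod2, Gpx4 and Prdx1, so the order of these neighbours is not firm. Within a genotype, 9 of the 10 genes varied less between libraries than the median gene tested. Their residual SD was 0.26 to 0.45 on the log2 scale, beside 0.49 for the median gene and 1.21 for Gpx4. All of the 10 but Foxo1 had a mean above that of at least 65% of all genes tested. The spread of other genes at like levels was not compared.

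**Figure D4:**
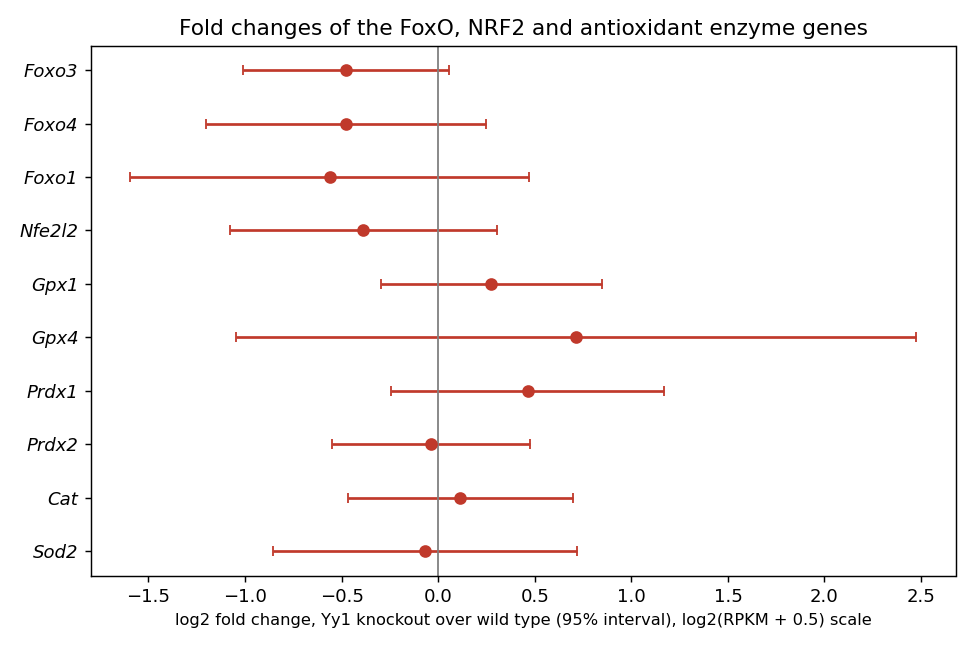
Log2 fold change of Yy1 knockout over wild type for each of the 10 genes on the log2(RPKM + 0.5) scale, with its 95% interval from limma. Each interval includes 0, and that of Foxo3, from -1.01 to 0.06, reaches past it by the least.

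Genes that act around these factors were read from 6 lists, which hold 138 distinct genes, 6 of them on 2 lists. No gene of any list passed the adjusted threshold, and the counts below describe the lists. The FoxO regulators hold the PI3K and AKT pathway genes upstream of FoxO and proteins that modify it. Of 25 tested genes, 9 lay above 0 and 16 below, their median log2 fold change was -0.11, and 0 had an unadjusted p under 0.05. With each library left out in turn the median ranged from -0.13 to -0.04, highest without knockout replicate 3. The values of 4 were lower in knockout with no overlap and 0 were higher, where 6.87% and 7.63% of all genes tested were. Pik3r1, a regulatory subunit of PI3K, averaged 26.0 ± 4.45 RPKM in knockout and 35.8 ± 8.49 RPKM in wild type, with no overlap (log2 fold change -0.44, limma adjusted p = 0.720). Pdpk1, the kinase that activates AKT, averaged 6.82 ± 0.828 RPKM in knockout and 9.99 ± 1.48 RPKM in wild type.

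Among FoxO target genes, 23 of 31 tested lay below 0 (74.2%, beside 48.1% of all genes tested) and 8 above, and the median log2 fold change was -0.19. At an unadjusted p under 0.05, 2 were lower and 0 higher, where 3.06% and 4.73% of all genes tested were. With no overlap, 5 were lower and 0 higher, beside 6.87% and 7.63% of all genes tested. The median was -0.02 without the library labelled Yy1 knockout replicate 1, -0.05 without wild type replicate 2 and -0.41 without wild type replicate 3. Pik3ip1, an inhibitor of PI3K, stood at 15.2, 19.1 and 17.4 RPKM in knockout and at 24.9, 24.5 and 45.4 RPKM in wild type, all knockout values being lower. This gave a log2 fold change of -0.80 (standard error 0.28, limma adjusted p = 0.586). Prdx3, the mitochondrial peroxiredoxin, stood at 15.0, 14.4 and 13.3 RPKM in knockout and at 18.4, 22.0 and 26.6 RPKM in wild type, again with no overlap (log2 fold change -0.62, standard error 0.23, limma adjusted p = 0.589). Cdkn1b, the gene of the cell cycle inhibitor p27, averaged 11.4 ± 1.04 RPKM in knockout and 15.5 ± 1.34 RPKM in wild type (limma adjusted p = 0.711).

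The partners of NRF2, such as its adaptor, its small MAF dimer partners and the competing BACH repressors, divided into 6 genes above 0 and 8 below of 14 tested. Their median log2 fold change was -0.19, and with each library left out in turn it ranged from -0.26 without wild type replicate 1 to 0.07 without knockout replicate 3. None had an unadjusted p under 0.05 or values without overlap. Bach1, a repressor at antioxidant response elements, averaged 12.0 ± 1.23 RPKM in knockout and 16.8 ± 4.25 RPKM in wild type. Park7, which encodes DJ-1, averaged 41.1 ± 6.85 RPKM in knockout and 50.8 ± 6.11 RPKM in wild type, and Sqstm1, the gene of the autophagy receptor p62 that binds KEAP1, 15.9 ± 2.97 RPKM in knockout and 20.8 ± 3.42 RPKM in wild type.

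NRF2 target genes were mixed in direction. Of 23 tested, 9 lay above 0 and 14 below, and the median log2 fold change of -0.13 became 0.07 without the library labelled Yy1 knockout replicate 1, 0.07 without wild type replicate 3 and -0.35 without wild type replicate 1. At an unadjusted p under 0.05, 1 was higher and 2 were lower, where 4.73% and 3.06% of all genes tested were. With no overlap, 2 were higher and 3 lower, beside 7.63% and 6.87% of all genes tested. Gclc, the catalytic subunit of the rate-limiting enzyme of glutathione synthesis, stood at 25.9, 25.0 and 29.6 RPKM in knockout and at 16.4, 21.3 and 11.1 RPKM in wild type, with no overlap. This gave a log2 fold change of 0.75 (standard error 0.27, limma adjusted p = 0.589). Ftl1, the ferritin light chain, stood at 50.2, 65.0 and 76.3 RPKM in knockout and at 85.8, 87.6 and 132 RPKM in wild type (log2 fold change -0.66, limma adjusted p = 0.589). Gstm1, a glutathione transferase, averaged 28.4 ± 7.47 RPKM in knockout and 44.3 ± 10.6 RPKM in wild type with overlap.

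Of 26 other antioxidant enzymes tested, 17 lay above 0 and 9 below, beside 51.9% and 48.1% of all genes tested, and the median log2 fold change was 0.15. The median was 0.24 without the library labelled Yy1 knockout replicate 1 and 0.10 without knockout replicate 3. The values of 7 were higher in knockout with no overlap and those of 2 lower, where 7.63% and 6.87% of all genes tested were. At an unadjusted p under 0.05 there was 1 in each direction, Gclc higher and Prdx3 lower, where 4.73% and 3.06% of all genes tested were. Glrx5, a mitochondrial glutaredoxin of iron-sulfur cluster assembly, stood at 30.3, 24.0 and 29.2 RPKM in knockout and at 0.999, 18.5 and 13.3 RPKM in wild type (log2 fold change 1.94, standard error 0.87, limma adjusted p = 0.654). Named after its values were seen, Sod1, the cytosolic superoxide dismutase, stood at 295, 293 and 296 RPKM in knockout and at 237, 205 and 292 RPKM in wild type. Its knockout values were all higher and nearly equal, and the limma adjusted p was 0.750.

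Of the genes that produce reactive oxygen species, such as NADPH oxidase subunits, 9 were tested, 3 above 0 and 6 below. The median log2 fold change was -0.12, becoming 0.02 when wild type replicate 2 was left out and -0.38 when knockout replicate 2 was. Ncf1, a cytosolic oxidase subunit, stood at 6.73, 5.74 and 4.85 RPKM in knockout and at 0.549, 1.63 and 3.40 RPKM in wild type, with no overlap (log2 fold change 1.60, standard error 0.57, limma adjusted p = 0.586). Cyba, the membrane subunit, averaged 37.7 ± 5.74 RPKM in knockout and 52.4 ± 15.3 RPKM in wild type. Rac1, a small GTPase of the oxidase complex, averaged 67.9 ± 12.9 RPKM in knockout and 56.1 ± 3.77 RPKM in wild type.

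**Figure D5:**
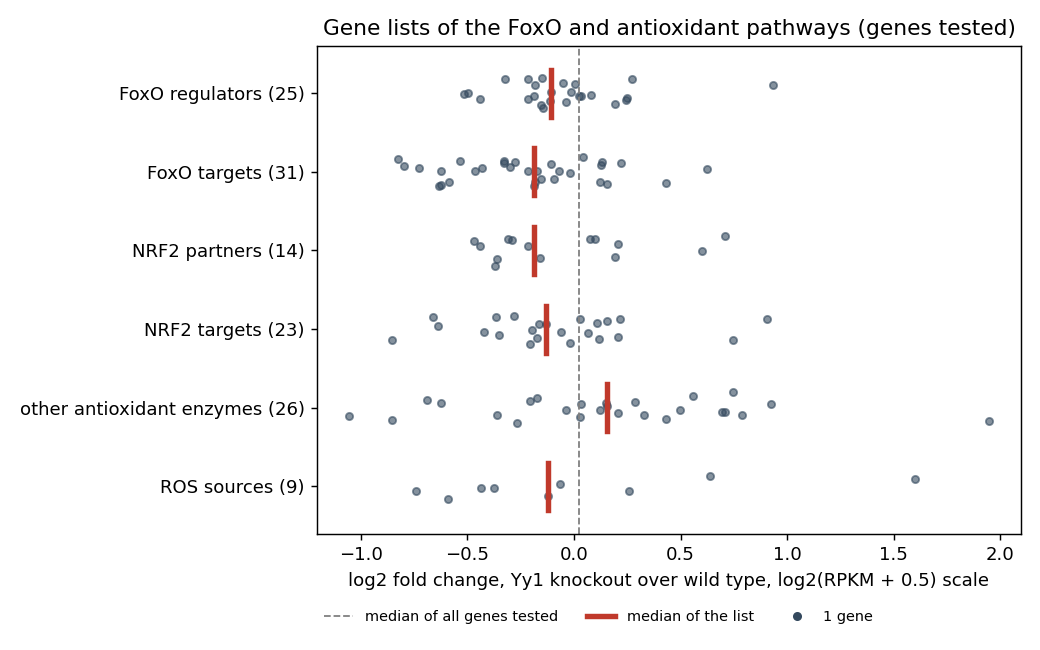
Log2 fold change of Yy1 knockout over wild type for each gene tested in the 6 lists, on the log2(RPKM + 0.5) scale, with 1 point per gene. Red bars are list medians, from -0.19 for FoxO targets and NRF2 partners to 0.15 for other antioxidant enzymes, and the dashed line is the median of all genes tested, 0.02.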

How the data were processed

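RNA of 6 libraries of sorted bone marrow cells was measured, 3 per genotype. The submitters' processing notes name mm10 and the tools limma, edgeR, featureCounts and Subread, and give no versions. The deposited RPKM values carry no unit in the header, and the unit was found from the values. Multiplied by GENCODE M21 exonic length they were whole multiples of 1 step per library, within 0.02 reads, for 11108 of 15465 genes (71.8%), and for 9 of the 10 genes described. The recovered reads of Sod2 and of other genes that were not whole are estimates, and the sum over all genes exceeded the scaling total in every library. The excess was a larger share of that total in each wild-type library than in any knockout library. The authors' log2 fold changes and p-values were deposited in the same table, per the file headers, and their test is not named there.

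Genes that reached 1 RPKM in 3 or more libraries were tested on log2(RPKM + 0.5) with limma 3.58.1 (R 4.3.3), variance trend on, and called at a Benjamini-Hochberg adjusted p under 0.05. Fold changes on this scale understate those of low genes. The fit was tested on simulated reads with a set spread between libraries, which need not match the spread in these data. The genes, lists and tests were chosen with earlier results of these data known. Named from each list were the genes with the 3 smallest p-values, except 1 gene that is not reported here. The library kit amplifies RNA, so reads are not independent molecules, and no strand setting is stated, so overlapping genes can share reads.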

Additional observations from a re-analysis of the deposited data

How the results depend on the processing

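No gene of the 10 passed under any of 17 alternatives, where the smallest adjusted p was 0.369, for Foxo3 in limma-voom with a replicate block. Of 169 log2 fold changes, 7 turned in sign, all with 1 library left out. For Gpx4 the value was -0.10 when wild type replicate 1 was left out, in a range of -0.10 to 1.51. For Sod2 it was 0.13 when wild type replicate 2 was and 0.21 when knockout replicate 2 was, in a range of -0.30 to 0.21. For Cat it was -0.055 when wild type replicate 3 was and -0.03 when knockout replicate 3 was, in a range of -0.055 to 0.27. For Prdx2 it was 0.10 when wild type replicate 3 was and 0.09 when knockout replicate 2 was, in a range of -0.20 to 0.10. Foxo3, Foxo4, Nfe2l2, Gpx1 and Prdx1 had the same sign under all 17, and Foxo1 under each in which it was tested. The median of the 10 ranged from -0.16 to 0.10 when each library was left out in turn, highest without knockout replicate 2.

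Over all genes, limma called 0, limma-voom 8, and limma-voom with a replicate block, a fit added after the data were examined, 72. Leaving out 1 library gave 0 to 1. In limma, the replicate block gave 0 calls. Same-numbered libraries correlated by 0.02, 0.06 and 0.05 across genes in their deviations from the group means. These values are small, yet 3 of 3 knockout and 2 of 3 wild-type libraries were closest to their own number. The margin was slim for knockout replicate 1, at 0.015 with wild type replicate 1 and 0.013 with wild type replicate 3. A shared component by number is thus not excluded. The labels do not say that the numbers are pairs, and the main fit did not take them as such. In the deposited column names, replicate 3 carries a different number in each genotype. At a filter of 5 RPKM, Foxo1 was not tested. The fewest recovered reads behind a value of the 10 genes were 55, for Gpx4 in wild type replicate 1.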
